A study of Drosophila melanogaster with 2 samples.

Results

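The 32 genes of the ecdysone pathway and the nuclear receptor family were examined for binding of pan, out of 13968 protein-coding genes on the main chromosome arms of Drosophila melanogaster. They were chosen by gene name, though with earlier results of these data known. The list holds the ecdysone receptor and its partner, cofactors and zinc finger regulators, and early genes that ecdysone induces. It also holds most other nuclear receptors and the enzymes that make the hormone. Chromatin immunoprecipitation and sequencing used an antibody against GFP on whole embryos of 0 to 24 h from flies carrying pan fused to enhanced GFP. There was 1 group with 2 replicates and no untreated or mutant group. The labels used here do not say which promoter drives the fusion, and a whole-embryo sample over this age range mixes every stage and tissue, so no value belongs to a tissue or a stage.

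Pan is the fly TCF, the DNA-binding protein through which Wingless (Wnt) signalling acts on its target genes; without the signal it recruits repressors to the same sites. Ecdysone is the steroid hormone of insects. It binds a dimer of 2 nuclear receptors, EcR and usp, which switches on a small set of early genes, several of them nuclear receptors themselves, and these in turn switch a later set on and off. The cascade is best known from moulting and metamorphosis, and a pulse of the hormone also runs in the embryo, where it is needed for head involution and cuticle formation.

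A gene is called bound below when the summit of a peak in the authors' conservative list lay in its body or within 2 kb of either end. That list holds peaks of the pooled replicates with a low irreproducible discovery rate (IDR), a measure of whether peaks recur at a like rank. It had 6359 peaks on the main arms. Replicate 1 alone gave 4549 and replicate 2 alone 5348, and 122939 peaks were ranked before the threshold. Read depth is unknown from these files. Signal is the authors' own value per peak, on a scale that the sources used here do not give, and it serves only to rank peaks within a list. The peaks were not set against a control here.

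Of the 85 summits in these genes, 33 lay in the 7 genes of the hormone-receptor cascade, 26 of them in Hr4 and ftz-f1. The 5 early ecdysone-induced genes held 21, and the 8 hormone-making enzymes, of which 5 are under 5 kb, held 2. Hr4, Hr3, Hr96 and ftz-f1 held the 6 strongest summits, all in introns except that of Hr96, which lay upstream of its start. Of the motifs searched, the TCF core was found near 11 of the 85 summits (12.9%), against 9.47% of all conservative summits. It was near none of the 10 strongest, where the share among equally strong summits of the whole list, 9.89%, would give about 1 in 10. The windows below, read along the forward strand of dm6 from the RefSeq copy of that assembly, run 50 bp to either side of a summit. Capitals mark matches on either strand to the TCF core (CTTTG followed by any 2 letters out of A and T), the receptor hexamer AGGTCA, the GAGA core GAGAG and the Zelda core CAGGTA. The first 4 are the 3 strongest summits with a TCF core, in introns of ftz-f1, Eip74EF and tai, and a weaker ftz-f1 summit that holds a TCF core and a receptor hexamer. The last 4 are strong summits in introns of Hr4 and ftz-f1 and upstream of Hr96, shown because none of these motifs is in the window.
ftz-f1, signal 206.0, chr3L:18786184-18786284: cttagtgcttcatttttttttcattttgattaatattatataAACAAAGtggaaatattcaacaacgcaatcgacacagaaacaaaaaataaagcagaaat
Eip74EF, signal 197.4, chr3L:17566992-17567092: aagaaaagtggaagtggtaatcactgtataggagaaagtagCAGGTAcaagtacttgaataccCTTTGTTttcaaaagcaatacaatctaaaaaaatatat
tai, signal 150.2, chr2L:9211363-9211463: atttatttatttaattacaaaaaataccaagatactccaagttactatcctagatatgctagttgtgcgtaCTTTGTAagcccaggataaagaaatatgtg
ftz-f1, signal 94.0, chr3L:18757374-18757474: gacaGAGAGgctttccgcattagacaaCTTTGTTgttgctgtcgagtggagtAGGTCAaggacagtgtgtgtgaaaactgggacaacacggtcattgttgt
Hr4, signal 607.8, chrX:1963874-1963974: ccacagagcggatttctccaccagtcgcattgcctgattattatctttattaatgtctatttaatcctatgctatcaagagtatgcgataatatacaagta
Hr4, signal 569.2, chrX:1947697-1947797: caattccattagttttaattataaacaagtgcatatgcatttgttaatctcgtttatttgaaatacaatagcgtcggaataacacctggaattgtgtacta
Hr96, signal 443.7, chr3R:25025027-25025127: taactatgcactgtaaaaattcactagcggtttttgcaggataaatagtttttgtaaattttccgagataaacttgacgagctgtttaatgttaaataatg
ftz-f1, signal 346.3, chr3L:18784693-18784793: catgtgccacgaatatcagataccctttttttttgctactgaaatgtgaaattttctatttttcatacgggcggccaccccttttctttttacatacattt

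Of the 32 genes, 22 (68.8%) were bound, against 5549 of the 13968 protein-coding genes (39.7%). In the passing list of replicate 1 it was 19 of the 32 (59.4%), against 32.4% of all genes, and in that of replicate 2 it was 20 (62.5%), against 36.5%. A summit lay within 1 kb of a transcription start site (TSS) of the gene itself in 14 (43.8%), against 25.6% of all genes. Before length was taken into account, the share of the listed genes was above that of all genes in the pooled list and in each replicate.

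Gene length moved with this difference. Among genes of 50 kb and over, 8 of 9 listed genes were bound, against 72.2% of all genes of that length. Between 20 and 50 kb it was 4 of 7, against 68.3%. Between 10 and 20 kb it was 2 of 3, against 63.1%. Between 5 and 10 kb all 3 were bound, against 53.3%, and under 5 kb it was 5 of 10, against 32.7%. Summed over the 32 genes, the shares of the classes come to 18 bound genes, where 22 were bound. At a start of their own they come to 10.6 genes, where 14 were bound, and the listed genes were below all genes in both long classes, with 3 of 9 against 38% and 2 of 7 against 39.5%. Matched on length class, the excess is thus about 4 genes in territories, with no excess among the 7 listed genes between 20 and 50 kb. Length within a class was not matched. Under 5 kb, the bound usp, Hr78, Hr96 and ERR were 3.3 to 4.1 kb long and the bound Hr83 was 1.3 kb. The unbound genes of that class were 1.2 to 2.7 kb.

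**Figure D1:**
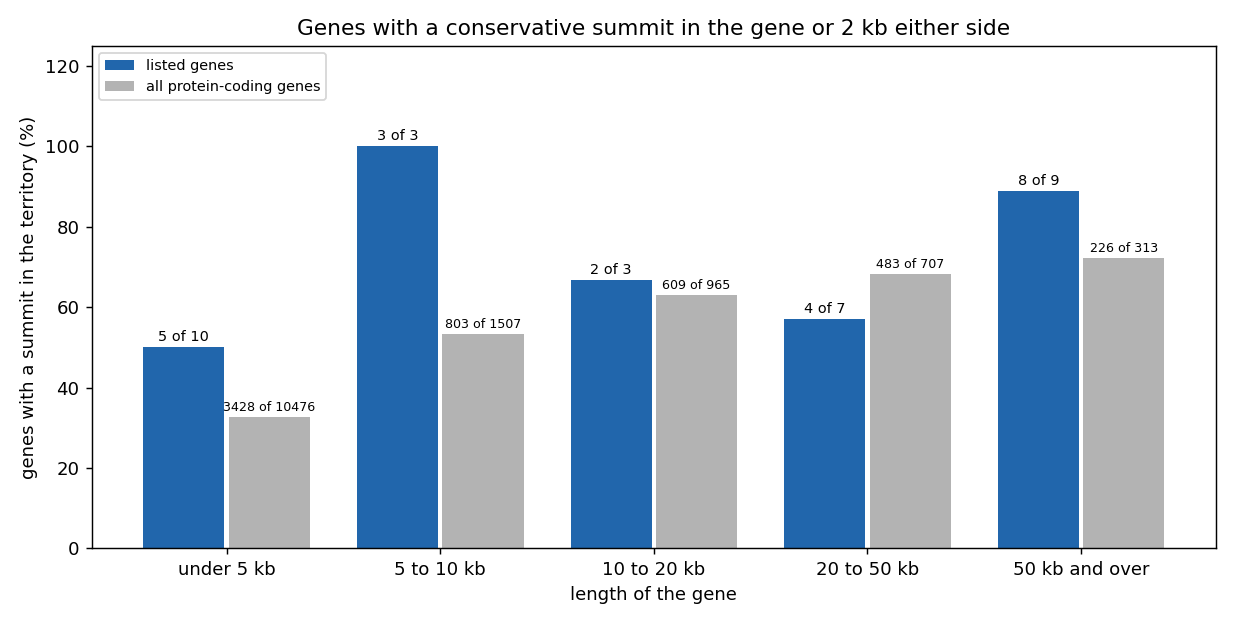
Share of genes with a conservative summit in the gene or within 2 kb of either end, by gene length, for the listed genes (blue) and all protein-coding genes (grey); the numbers above the bars are bound genes of genes in the class. Listed genes stand above all genes in 4 classes and below them from 20 to 50 kb, where 4 of 7 were bound.

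The number of summits per gene differed more. Of the 32 genes, 6 (18.8%) had 5 or more, against 1.77% of all genes, and all 6 were of 50 kb and over. In that class it was 6 of 9 listed genes, against 30.4% of 313 genes. The median was 7 summits in the 9 listed genes and 2 in all genes of the class. In the replicates' own passing lists, tai, Eip75B, Hr4 and ftz-f1 each kept 5 or more. Eip74EF had 3 in each list, and EcR had 3 in replicate 1 and 7 in replicate 2. The share of all genes with 5 or more was not computed for the replicates. Of the 1055 pooled ranked peaks in the listed territories, 85 (8.06%) were in the conservative list, against 5.17% of all ranked peaks. All ranked peaks include those outside gene territories, and this comparison was not matched on gene length. Hr4 and ftz-f1 held 26 of the 85. The summits were uneven, since 5 genes (Hr4, ftz-f1, Eip75B, tai and Eip74EF) held 53 of the 85 (62.4%).

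In signal the 85 summits lay near the whole list. Their median was 116.0, against 120.0, and 49.4% of them were at or above that median. In 17 of the 22 bound genes the strongest peak reached it. A gene with several summits has more chances to reach it, and the share among all bound genes was not computed. Peaks close together were more frequent, with 21.2% of the 85 overlapping another conservative peak, against 9.7% in the whole list, and 7 had a signal under 20 (8.24%, against 3.18%). Merging the overlapping peaks left 76.

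**Figure D2:**
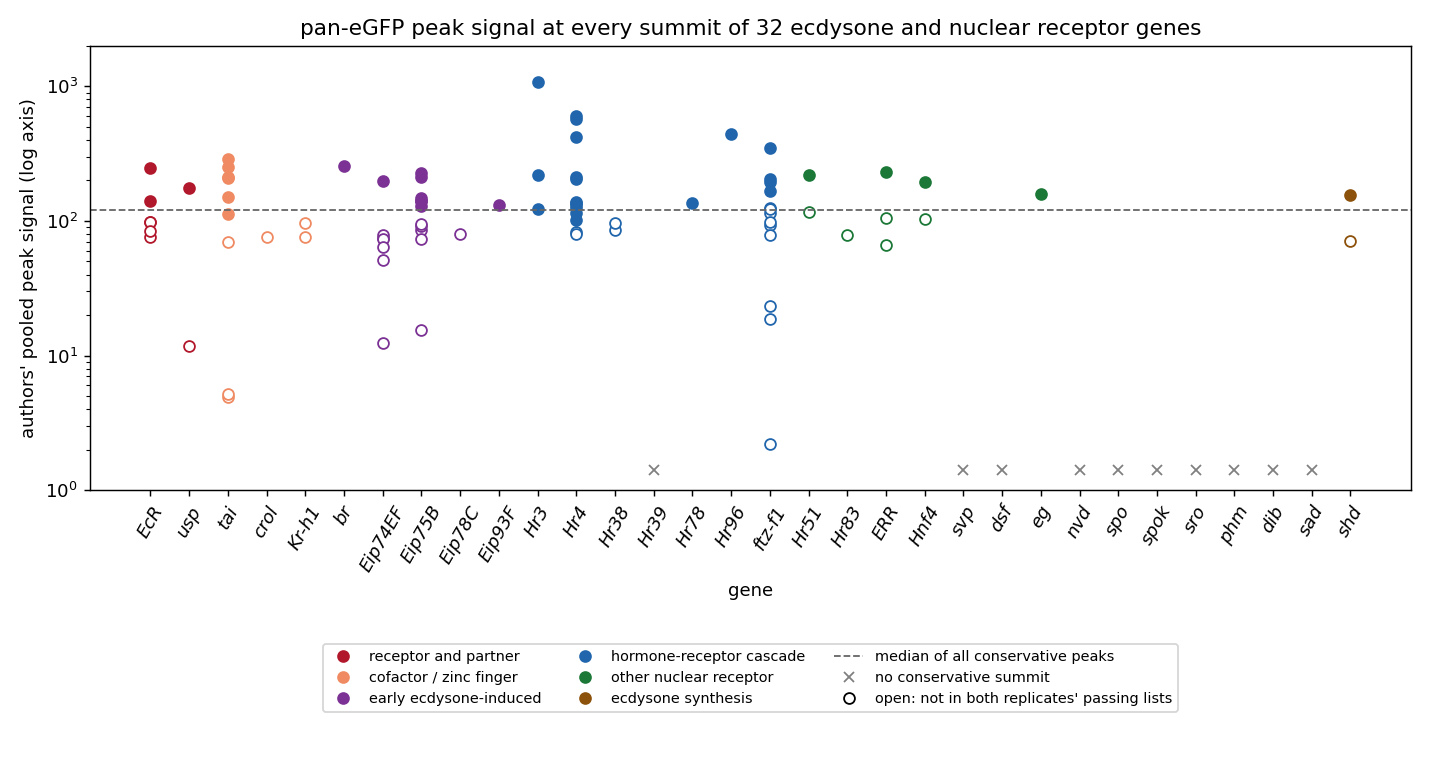
Pooled signal (log axis) of every conservative summit of the 32 genes, coloured and ordered by role, with crosses for the 10 genes with none and a dashed line at the median of all conservative peaks, 120.0. Open circles are summits missing from the passing list of at least 1 replicate. The highest point is the Hr3 summit at 1085.3, and 7 of the 8 enzymes at the right have no summit.

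EcR, the hormone's receptor, had 6 summits along its 81.2 kb on chromosome 2R. The strongest lay in an intron, 5856 bp downstream of the start of transcripts EcR-RD and EcR-RE, with a pooled signal of 248.0, 142.4 in replicate 1 and 100.3 in replicate 2. A second stood 258 bp upstream of that start, with 141.3 pooled, 65.7 in replicate 1 and 75.8 in replicate 2. A further summit 1003 bp upstream of it had 84.3 pooled, and passed in replicate 2 but not in replicate 1. No summit lay within 1 kb of the other EcR start sites. Replicate 1 alone listed 3 peaks in the gene and replicate 2 alone listed 7.

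The gene for usp, the RXR-type partner of EcR, was 3.5 kb long and had 2 summits at its start sites. The stronger, 150 bp upstream of the start of usp-RA, had 175.5 pooled, 116.9 in replicate 1 and 55.2 in replicate 2. The other had a signal of 11.8 and was in neither passing list. CG4313 starts 406 bp from the stronger summit, so which gene it belongs to cannot be told from position.

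The 3 cofactors and zinc finger regulators were all bound, each at a start of its own, where the shares of their length classes come to 1.98 bound and 1.2 at a start. For tai, which encodes a steroid receptor coactivator that works with EcR, 9 summits spread over 69.1 kb. The strongest lay 175 bp upstream of its first start, with 288.0 pooled, 156.0 in replicate 1 and 131.0 in replicate 2. It lay closer still, at 89 bp, to the start of CG9586. An intronic summit 1716 bp downstream had 251.6 pooled, with 102.1 in replicate 1 and 157.3 in replicate 2. The remaining tai summits had signals of 211.0, 207.8, 150.2, 113.2, 70.0, 5.2 and 4.9. The peaks of the last pair overlapped stronger ones, and 6 of the 9 tai summits were in both replicates' passing lists.

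The others of this group were weak. For crol, an ecdysone-regulated zinc finger gene, the single summit 21 bp upstream of a start had 76.3 pooled, 34.0 in replicate 1 and 55.9 in replicate 2. Its window held 3 matches to the DREF core TATCGAT, of which 2 overlap on opposite strands. Kr-h1, a zinc finger gene of the juvenile hormone response, had an intronic summit of 95.8 pooled, with 31.0 in replicate 1 and 63.3 in replicate 2. Its summit 790 bp upstream of the start of Kr-h1-RB had 76.2 pooled, with 29.4 in replicate 1 and 44.6 in replicate 2. CG45075 starts at the same position as Kr-h1-RB. Both crol and Kr-h1 had no peak in the passing list of replicate 1.

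All 5 early ecdysone-induced genes were bound, where the shares of their length classes come to 3.57. At a start of its own 1 was bound, where they come to 1.92. This was Eip75B, a nuclear receptor of the Rev-erb type, 113.7 kb long with 7 start sites and 11 summits. Its strongest summit stood 102 bp downstream of the start of Eip75B-RC, with 228.5 pooled, 137.2 in replicate 1 and 83.5 in replicate 2. Summits also stood 181 bp downstream of the start of Eip75B-RA, with 91.4 pooled, 38.2 in replicate 1 and 51.4 in replicate 2, and 81 bp downstream of that of Eip75B-RD, with 85.5 pooled, 44.1 and 49.3. Each of these passed in replicate 2 and not in replicate 1. The 3 start sites closest to the gene's 5′ end, and that of Eip75B-RG, had none within 1 kb. The 8 intronic summits had signals of 211.8, 147.8, 141.4, 140.6, 129.7, 94.5, 73.6 and 15.5.

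Eip74EF, an ETS-domain factor, had 7 summits in 60.7 kb, none within 1 kb of its own starts. An intronic summit 9278 bp downstream of the start of Eip74EF-RD had 197.4 pooled, 114.8 in replicate 1 and 71.2 in replicate 2, and was the only one of the 7 in both passing lists. The others had 78.7, 74.9, 73.9, 64.5, 51.2 and 12.4, and 5 of these 6 were in neither. The summits of 74.9 and 51.2 lay beyond the end of the gene, 392 and 193 bp from the start of CycT.

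The remaining early genes had a single summit each. For br, whose BTB zinc finger proteins direct metamorphosis, it had 255.1 pooled, 143.0 in replicate 1 and 110.0 in replicate 2. It lay in an intron 3450 bp upstream of the start of br-RS and 703 bp from the start of Mur2B, which also lies within br. None of the 9 br start sites had a summit within 1 kb. Eip93F, a factor that specifies adult structures, had an intronic summit of 131.7, with 69.1 in replicate 1 and 61.9 in replicate 2. Eip78C, a receptor related to Eip75B, had one of 80.6, in neither passing list.

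The share of ranked peaks that reached the conservative list varied widely among the long genes. In br, 1 of 102 was in it (0.98%). Over the 566 protein-coding genes with 40 or more ranked peaks the median was 3.93%, and 112 of them (19.8%) were at or below br, of which 98 had no peak in the list. Among the listed genes svp, with 44 ranked peaks, also had none. By contrast, ftz-f1 had 19.4% of its 67 ranked peaks in the list, a share that 8 of the 566 genes (1.41%) reached or passed. Of its 13 conservative peaks, 4 were in both passing lists. Merging overlapping ones left 10, and the share was not recomputed after merging. Hr4 had 15.5% of 84, reached or passed by 24 genes (4.24%).

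The hormone-receptor cascade held 33 of the 85 summits, 25 of them in introns and more than 1 kb from the start of any gene. Of its 7 genes 6 were bound, where the class shares come to 4.15. Hr3, an ROR-type receptor that switches on ftz-f1 late in the cascade, had the strongest peak of all the listed genes, which ranked 61 in the whole list. It had 1085.3 pooled, 582.6 in replicate 1 and 502.7 in replicate 2, and lay in an intron 7897 bp downstream of the start of Hr3-RA, Hr3-RF and Hr3-RH. The other Hr3 summits had 221.0 and 122.1. All 3 were in both passing lists, and no start of Hr3 had a summit within 1 kb.

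Hr4, a receptor that acts as a repressor in the cascade (chrX:1941940-2007956), had 13 summits over 69.7 kb, of which 10 were in both passing lists. The strongest was intronic, 21984 bp downstream of its first start, with 607.8 pooled, 264.1 in replicate 1 and 338.1 in replicate 2. The next lay 5807 bp downstream, with 569.2 pooled, 273.4 in replicate 1 and 288.1 in replicate 2. Another strong summit at 9979 bp had 420.2 pooled, 220.8 in replicate 1 and 204.0 in replicate 2. Among weaker Hr4 peaks the replicates ranged from close, with 46.2 in replicate 1 and 43.3 in replicate 2 at the peak of 80.2, to far apart, with 110.2 and 34.1 at that of 135.1.

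The other Hr4 summits had 211.6, 203.5, 138.6, 135.1, 131.3, 125.2, 114.7, 101.2, 82.8 and 80.2. That of 135.1 lay 121 bp from the start of CG3857, that of 131.3 lay 152 bp from PIG-K, and that of 80.2 lay 64 bp from a noncoding RNA. None of the 13 was within 1 kb of either start of Hr4. The median gap between neighbouring summits was 3434 bp, and 8 of 12 gaps were within 5 kb.

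For ftz-f1, an NR5A receptor that makes tissues competent for the next hormone pulse and partners Ftz in the segmenting embryo (chr3L:18750607-18801309), all 13 summits were in introns. The strongest, 16566 bp downstream of the start of ftz-f1-RB, had 346.3 pooled, 162.6 in replicate 1 and 186.5 in replicate 2. That of 206.0 lay 15075 bp downstream of the same start, with 103.4 in replicate 1 and 100.5 in replicate 2. That of 194.8 lay 3798 bp upstream of the start of ftz-f1-RC and ftz-f1-RD, with 115.4 in replicate 1 and 93.4 in replicate 2. These and the summit of 166.7 were the 4 in both passing lists. The other signals were 123.9, 123.0, 115.2, 98.2, 94.0, 78.6, 23.2, 18.7 and 2.2. Merging overlapping peaks left 10, with a median gap of 1967 bp between neighbours, the narrowest among the 6 genes with 5 or more merged peaks.

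**Figure D3:**
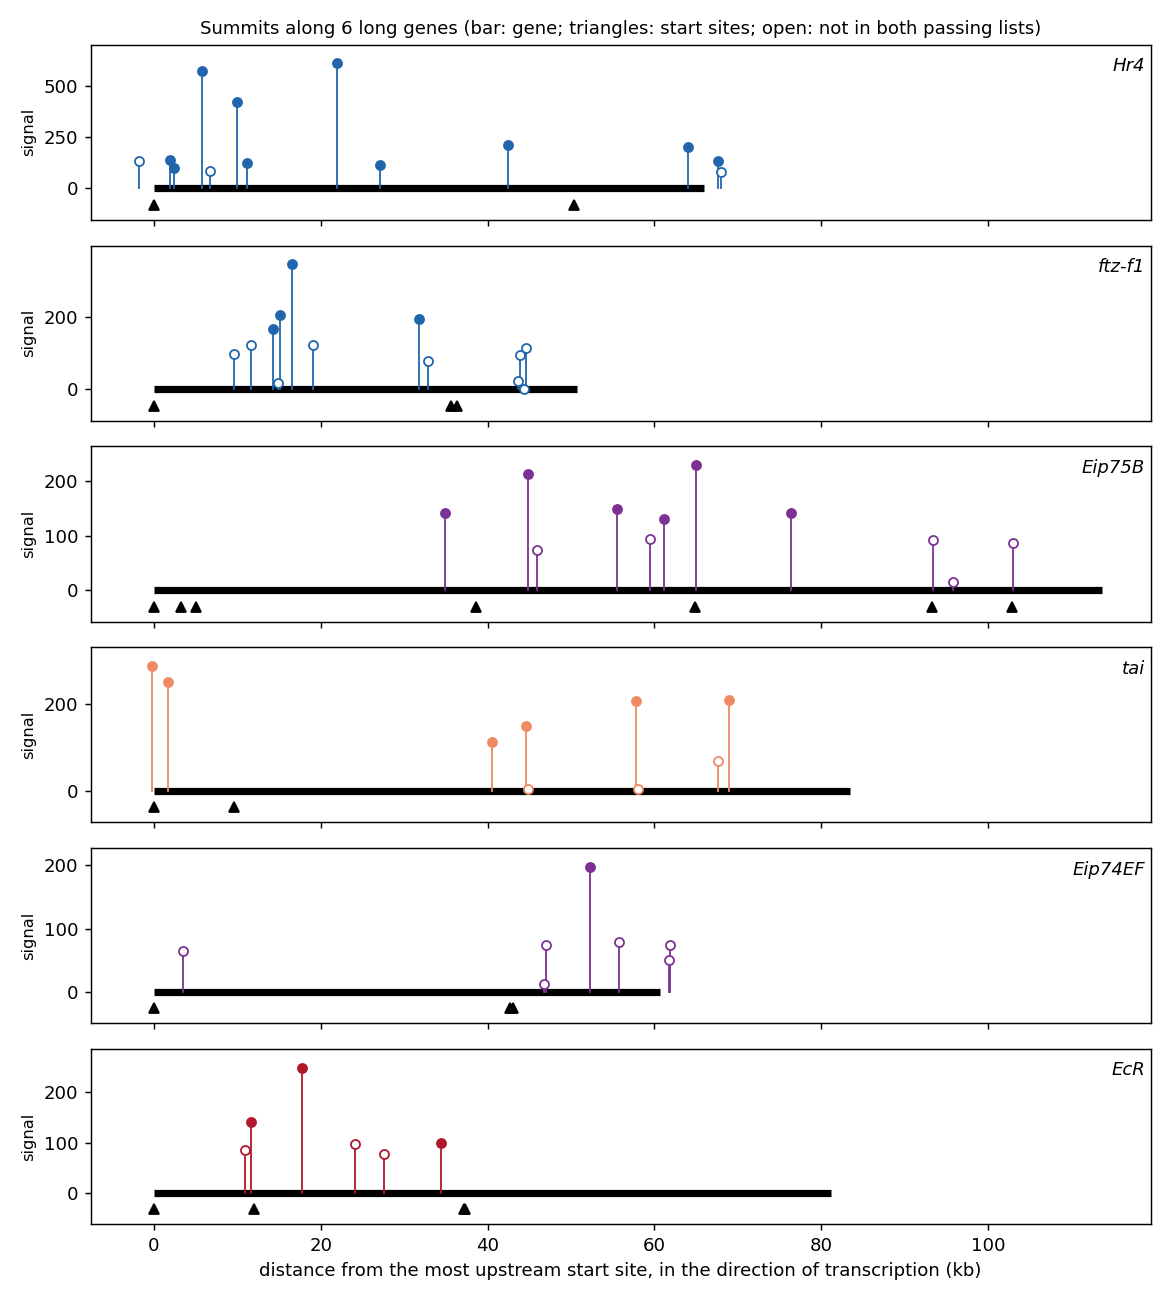
Position of each conservative summit along the 6 genes with most summits, as distance in kb from the most upstream start in the direction of transcription, against pooled signal on an axis of its own for each gene; bars are genes, triangles start sites and open circles summits not in both passing lists. The summits of Hr4 and ftz-f1 stand away from the triangles, whereas Eip75B, tai and EcR have some at a start.

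The other cascade members had few summits. Hr96, a receptor of lipid and xenobiotic metabolism, had 1 summit 158 bp upstream of its start, with 443.7 pooled, 225.6 in replicate 1 and 210.2 in replicate 2. EMC6 starts 60 bp from it. Hr78 had 1 of 136.5, with 80.1 in replicate 1 and 57.2 in replicate 2, 38 bp downstream of a start. Hr38, of the NR4A type, had 85.0 in an intron and 96.4 at 640 bp upstream of its start, each in 1 passing list.

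Hr39, an NR5A receptor like ftz-f1, had no conservative summit. A ranked peak did lie 49 bp from its start, with 85.0 pooled, 41.1 in replicate 1 and 34.3 in replicate 2. Its −log10 global IDR of 2.18 was above the lowest value in the conservative list, 2.00, yet it was not in that list, as with 151 ranked peaks in all. Hr39 is therefore unbound by the list used and would be bound by the IDR value alone.

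Of the 7 other nuclear receptors, 5 were bound and 4 at a start of their own, where the class shares come to 3.72 and 2.36. ERR, a regulator of glycolytic genes, had 231.2 pooled, 130.9 in replicate 1 and 98.7 in replicate 2 at 156 bp upstream of a start, with Atg18a starting 30 bp away. Overlapping ERR peaks of 106.1 and 66.6 stood near its other start, each in 1 passing list. Hr51, which acts in neurons, had 116.0 at its own start, with 45.6 in replicate 1 and 74.1 in replicate 2. Its summit of 218.3, with 99.2 and 106.9, lay beyond its other end and 794 bp from the start of unc-5. Hnf4, a lipid-sensing receptor, had 195.3 pooled, 139.4 in replicate 1 and 50.5 in replicate 2, at 211 bp upstream of the start of Hnf4-RB. A second peak of 102.6 overlapped it.

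The last of these were eg and Hr83. For eg, a factor of neuroblast lineages, the summit 297 bp upstream of a start had 158.1 pooled, 91.1 in replicate 1 and 71.9 in replicate 2. The summit counted for Hr83 had 78.2, was in neither passing list, and lay 2087 bp from the start of Hr83 and 434 bp from that of Pak. The COUP-TF receptor svp had 44 ranked peaks and none in the list. Its strongest had a signal of 62.8 and ranked 8454 among ranked peaks. The receptor dsf had 2 ranked peaks, the stronger of 61.6.

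Of the 8 ecdysone synthesis enzymes, only shd was bound, where the class shares come to 3.57. Its product converts ecdysone to the active hormone in target tissues. A summit 641 bp upstream of its start had 71.2 pooled, 47.5 in replicate 1 and 38.6 in replicate 2, and was in neither passing list. Another of 156.0, with 86.7 in replicate 1 and 65.2 in replicate 2, lay past its other end, 225 bp from the start of CG9628. The 7 without a summit, nvd, spo, spok, sro, phm, dib and sad, encode the earlier steps, which are best known from the hormone-making gland. The strongest ranked peaks were 66.7 at sro, 53.6 at sad, 43.0 at phm, 42.9 at dib, 40.3 at spo and 24.1 at nvd. All 5 of spo, sro, phm, dib and sad are under 5 kb, where 32.7% of all genes were bound, while nvd is 76.8 kb long and spok 31.7 kb. The sum of 3.57 counts nvd and spok at the shares of their classes, 72.2% and 68.3%. Yet nvd had 2 ranked peaks in its territory and spok had 0.

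A missing peak cannot be read as missing binding everywhere. No ranked peak at all lay in the 35.7 kb around spok, in a stretch of 56.4 kb of the 80.8 kb around nvd, or in 16.0 of the 17.3 kb around dsf. Such stretches also ran through bound genes, with 26.4 kb in Eip75B, 19.1 kb in tai and 11.2 of 12.9 kb around eg. Whether reads could be placed there was not tested, since the files hold no coverage.

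Taking all 85 summits, 38.8% were within 1 kb of the start of some gene, against 54% in the whole list, and 58.8% were intronic, against 32.2%. Intronic here means in an intron and more than 1 kb from the start of any gene. The 85 were taken from genes and 2 kb around them, so by that choice few could be intergenic. Of them 0 were, against 12% of the whole list. Long genes moved with the intronic share too. In the territories of genes of 20 kb and over, 26.1% of 69 summits of listed genes and 36% of 2411 summits of all genes were near a start. In introns it was 71% and 60.6%. The summits of the listed genes thus stood on the intronic side in both views, by less among long genes. Of the 49 intronic summits in long listed genes, ftz-f1 held 13, all of its summits, and Hr4 held 9 of its 13. Elsewhere it was 8 of 11 in Eip75B, 6 of 9 in tai, 5 of 7 in Eip74EF and 3 of 6 in EcR. Hr3 had 2 of 3, Hr38 had 1 of 2, and Eip78C and Eip93F had 1 of 1. For br it was 0 of 1 and for Hnf4 0 of 2. Shares without ftz-f1 and Hr4 were not computed, so the difference among long genes may rest on them and is not shown for the other listed genes.

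Another gene's start lay within 1 kb of a start of its own that was bound in 7 of the 14 genes, namely usp, tai, Kr-h1, Hr78, Hr96, Hr51 and ERR. Over all genes bound at a start it was 2305 of 3571 (64.5%). For these 7 the peak cannot be assigned to the listed gene by position. The 7 with no such neighbour were EcR, crol, Eip75B, Hr38, Hnf4, eg and shd, and their peaks at a start reached at most 228.5, at Eip75B.

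The replicates recovered the summits about as often as elsewhere. Of the 85, 50.6% were in both passing lists, against 53% of the whole list, 24.7% were in 1, against 26.1%, and 24.7% were in neither, against 20.9%. Over the 74 summits with a ranked peak in each replicate, Spearman's rho between replicate signals was 0.594, against 0.76 over 6000 summits of the whole list. The points share the same pair of libraries, so rho is a description. The median ratio of replicate 1 to replicate 2 was 1.12 at the listed genes and 0.989 overall.

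**Figure D4:**
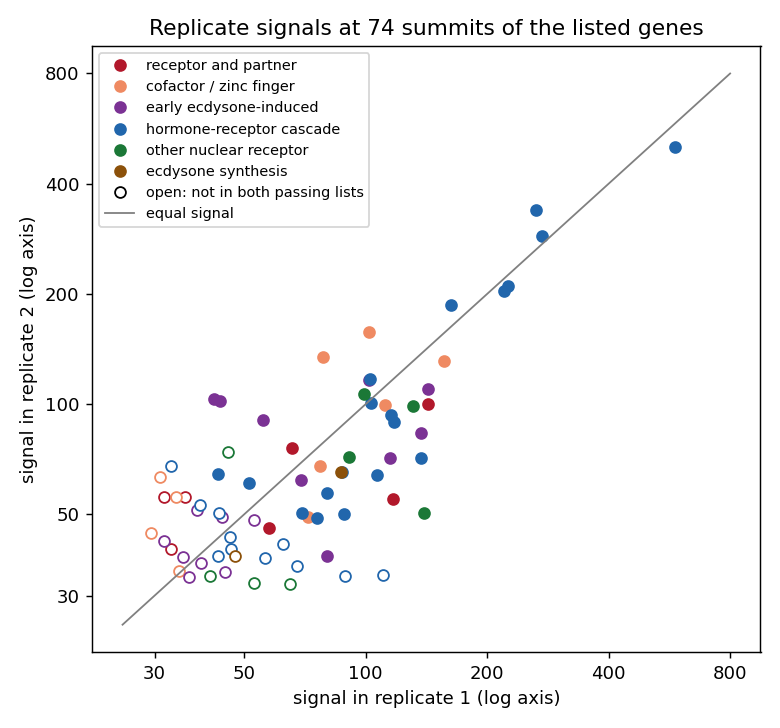
Signal in replicate 1 against replicate 2 (log axes) at the 74 summits of the listed genes that were ranked in both, coloured by role, with a line at equal signal and open circles for summits not in both passing lists. The strongest peaks, with Hr3 at 582.6 and 502.7, lie near the line, and summits with less signal are more scattered around it.

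Motifs were counted on both strands within 50 bp of a summit. The TCF core, the sequence that TCF proteins bind, was near 11 of the 85 summits (12.9%), against 9.47% of all conservative summits. In windows of the same width centred 500 bp to either side it was in 11.2% for the listed genes and 7.64% for the whole list. The share at the summits was thus close to that in their own flanks. The 11 summits were in usp, tai, Eip74EF, Eip75B, Hr4 and ftz-f1, and their median signal was 101.2, against 122.6 for the 74 without, with 3 of the 11 under 20. Over the whole list the medians were 122.0 with the core and 119.5 without. The strongest of them, 206.0, was number 19 among the 85. Of all conservative summits at or above 248.0, the signal of the 10th strongest of the listed genes, 9.89% held the core.

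The hexamer AGGTCA, to which many nuclear receptors bind, was near 2 summits (2.35%), in EcR and ftz-f1, against 2.03% of the whole list. The FTZ-F1 core CAAGGTC, which can overlap that hexamer by its last 5 letters, was near none, against 0.315%. The GAGA core was near 13 summits (15.3%), against 10.9%. The Zelda core was near 3 (3.53%), against 1.82%, and the DREF core near 1 (1.18%), against 3.26%. In the flanks of the listed summits the GAGA core was in 31 windows (18.2%), the hexamer in 8 (4.71%) and the DREF core in 5 (2.94%). Each of these was above the share at the summits, while the Zelda core was in 3 (1.76%), below it. Apart from the GAGA core, these shares rest on few summits and windows. GC content of the windows was 38.3%, against 35.9%. A match says only that these letters are in the window.

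Of 38 further genes of the pathway and family, 20 were bound (52.6%) and 10 at a start of their own (26.3%), against 39.7% and 25.6% of all genes. Summed over their lengths, the class shares come to 18.3 bound and 11.4 at a start, so both counts were near those of genes of like length. E23, an ecdysone-induced ABC transporter, had 738.4 pooled, 440.5 in replicate 1 and 287.7 in replicate 2, 242 bp from its start. For gce, a juvenile hormone receptor, it was 635.2 pooled, 420.7 in replicate 1 and 193.9 in replicate 2, 549 bp from a start. For Ino80, a chromatin remodeller, it was 458.2 pooled, 250.4 in replicate 1 and 210.8 in replicate 2, at 98 bp. All 3 were stronger in replicate 1.

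The other 7 had weaker peaks at a start. CSN2, listed as alien in the annotation, had 232.4, and the receptor cofactor rig had 145.2. Oatp74D, the ecdysone importer, had 133.2. Signals of 88.2 at woc, 88.0 at chinmo, 86.7 at Eip63E and 72.1 at Fdx1 were all under the list's median. Smr, the corepressor that binds EcR, had 12 summits and none at a start of its own.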

How the data were processed

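Per the labels, the 2 replicates were chromatin immunoprecipitation libraries of 0 to 24 h embryos. Per the file headers, the deposited peak lists are on dm6, ranked or passed by the irreproducible discovery rate, of each replicate and of both together; the aligner and peak caller are not given in the sources used here. The authors' signal per peak has no stated scale. The deposited −log10 q and the deposited score (−log10 global IDR) served to describe peaks only. Read depth is unknown.

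Python 3.11.15, numpy 2.4.6 and scipy 1.17.1 were used, with the Ensembl release 115 annotation of the same assembly, whose symbol for phm is phtm. Summits were counted in gene bodies with 2 kb either side and within 1 kb of annotated start sites. A pooled peak was called present in a replicate where their peaks overlapped by 50% of the shorter, and replicate signals came from each replicate's own ranked list. The code that counts summits, overlaps and motifs was checked on simulated data with known answers. No test between groups was possible with 1 group, and peaks and genes are not replicates, so no p-value is given. Length was matched by 5 length classes.

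Members, roles, further pathway genes, motifs and alternatives were chosen with earlier results of these data known. Every listed gene is named, with its strongest peak and each peak at a start of its own, all peaks for the 5 genes with the most, and further pathway genes bound at a start. The other genes named were chosen after their values were seen. Alternatives covered the longer list, each replicate, stronger peaks, merging, windows and overlaps.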

Additional observations from a re-analysis of the deposited data

How the results depend on the processing

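The 22 bound genes became 16 with gene bodies alone, 26 with 5 kb either side, 15 without summits near another gene's start and 17 with only the stronger peaks, those at or above the median signal. With each replicate's own list in place of the pooled one they became 19 to 20, the 14 genes bound at a start of their own became 10 to 14, the 85 summits 58 to 70, and the 17 genes with a strongest peak at or above the median 12 to 16. The 14 became 9 with the stronger peaks and 8 with a window of 250 bp, and the 85 became 42 with the stronger peaks, a setting that by construction keeps fewer. The 11 summits with a TCF core became 23 with 150 bp to either side, a wider window. That is 27.1%, against 23.6% of all conservative summits. Every other alternative stayed within 1.5 times. The share of all genes was recomputed only for genes bound in each replicate's list. The other counts of genes thus do not show whether the excess over all genes held. Restoring the passing peaks that the conservative list lacks, chosen after seeing the data, gave 23, 15 and 86, the added gene being Hr39. No paired analysis was possible because there is 1 group and no contrast. Without read counts, depth sets an unknown limit on every absent peak.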
